A study of Mus musculus with 6 samples.

Results

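The Kallikrein 1 cluster of the mouse was followed across 3 cultures of bone marrow cells. Its 10 members here are Klk1, Klk1b3, Klk1b4, Klk1b5, Klk1b11, Klk1b21, Klk1b22, Klk1b24, Klk1b26 and Klk1b27, and they were taken as every probe whose gene name in the files is one of these. That gave 10 genes of the 37325 on the array and 11 of its 56605 non-control probes, 2 of them for Klk1b26 and 1 for each other gene. The genes were chosen with their values in these groups known, so the levels below are a description with no test. All 11 probes passed the filter on dim probes, which kept 33484 probes in all.

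Total RNA was hybridised to 6 one-colour Agilent arrays, 2 per group. All cells came from the bone marrow of female C57BL/6J mice aged 6 to 8 weeks and were grown with GM-CSF, a growth factor for myeloid cells. 6G- BM-MDSC are myeloid-derived suppressor cells grown for 4 days at 40 ng/ml from marrow that had been depleted of Ly-6G+ cells on magnetic beads. MDSC (conv.) were grown in the same way for 4 days at 40 ng/ml from marrow that was not separated. DCs, dendritic cells, were grown for 8 days at 20 ng/ml, and in non-treated dishes where the MDSC groups had tissue culture-treated ones, so they differ from both MDSC groups in time, dose and dish as well as in cell type. Neutrophil, basophil and macrophage genes were well above background on arrays of every group. Whether this reflects several cell types in a culture was not tested. Replicates carry numbers in the labels, and nothing there says that they were grown or taken from mice separately, so the spread between them may be technical. In such bulk samples, fewer cells of a type and less RNA per cell cannot be told apart.

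Klk1 is the tissue kallikrein, a secreted trypsin-like serine protease that cleaves kininogen to release kinins, which widen vessels and raise their permeability. The Klk1b genes are rodent duplicates of it that lie side by side, and several are known from the mouse salivary gland, where their products process or bind growth factors. Klk1b3 encodes the gamma subunit of the nerve growth factor complex, Klk1b4 its alpha subunit, which lacks protease activity, and Klk1b22 and Klk1b26 encode binding proteins of epidermal growth factor. In the RefSeq table used here (GRCm38.p6), 24 Klk1 and Klk1b loci lie on chromosome 7, of which 14 are protein coding and 10 are pseudogenes, and the members span 234 kb.

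Because the copies are so alike, each probe is given by itself and the probe sequences were compared with one another. Of the 55 pairs of member probes, 4 shared an identical run of at least 15 bases, and 8 of the 11 probes belonged to such a pair. Of these pairs, 3 are printed here, with the shared run in capitals, because they show how much of a probe 2 genes can have in common. Positions are those of the files, on mm9. The RefSeq table places the genes on the forward strand.
Klk1b11, chr7:51255119-51255178: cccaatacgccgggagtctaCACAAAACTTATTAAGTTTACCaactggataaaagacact
Klk1b27, chr7:51311959-51312018: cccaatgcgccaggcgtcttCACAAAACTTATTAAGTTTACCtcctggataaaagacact
Klk1b3, chr7:51457064-51457122: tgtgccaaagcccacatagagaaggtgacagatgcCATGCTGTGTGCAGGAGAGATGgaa
Klk1b22, chr7:51371648-51371707: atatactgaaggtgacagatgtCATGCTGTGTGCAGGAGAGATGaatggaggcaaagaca
Klk1, chr7:51484170-51484325: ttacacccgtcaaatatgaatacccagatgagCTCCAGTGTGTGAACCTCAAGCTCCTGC
Klk1b4, chr7:51466302-51466457: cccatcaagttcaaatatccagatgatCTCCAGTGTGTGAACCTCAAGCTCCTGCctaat
The Klk1b11 and Klk1b27 probes matched at 54 of 60 bases (90.0%) and shared a run of 22. The Klk1b3 and Klk1b22 probes shared a run of 22 bases, shifted against each other, and matched at 41 of 47 overlapping bases. The Klk1 and Klk1b4 probes shared a run of 28 bases and matched at 48 of 55, and both cross a gap in the genome, since 60 bases of probe span 156 positions.

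The fourth pair was the second Klk1b26 probe and the Klk1b5 probe, with a run of 19 bases. The Klk1b26 probe that spans a gap is called the junction probe here and the other one the end probe. Only the end probe and the Klk1b5 probe of the members hold AATAAA, the letters of a polyadenylation signal. The Klk1b21, Klk1b24 and Klk1b26 junction probes shared no run of 15 bases with any other probe of the cluster. How far a transcript of one copy binds the probe of another was not tested.

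**Figure D1:**
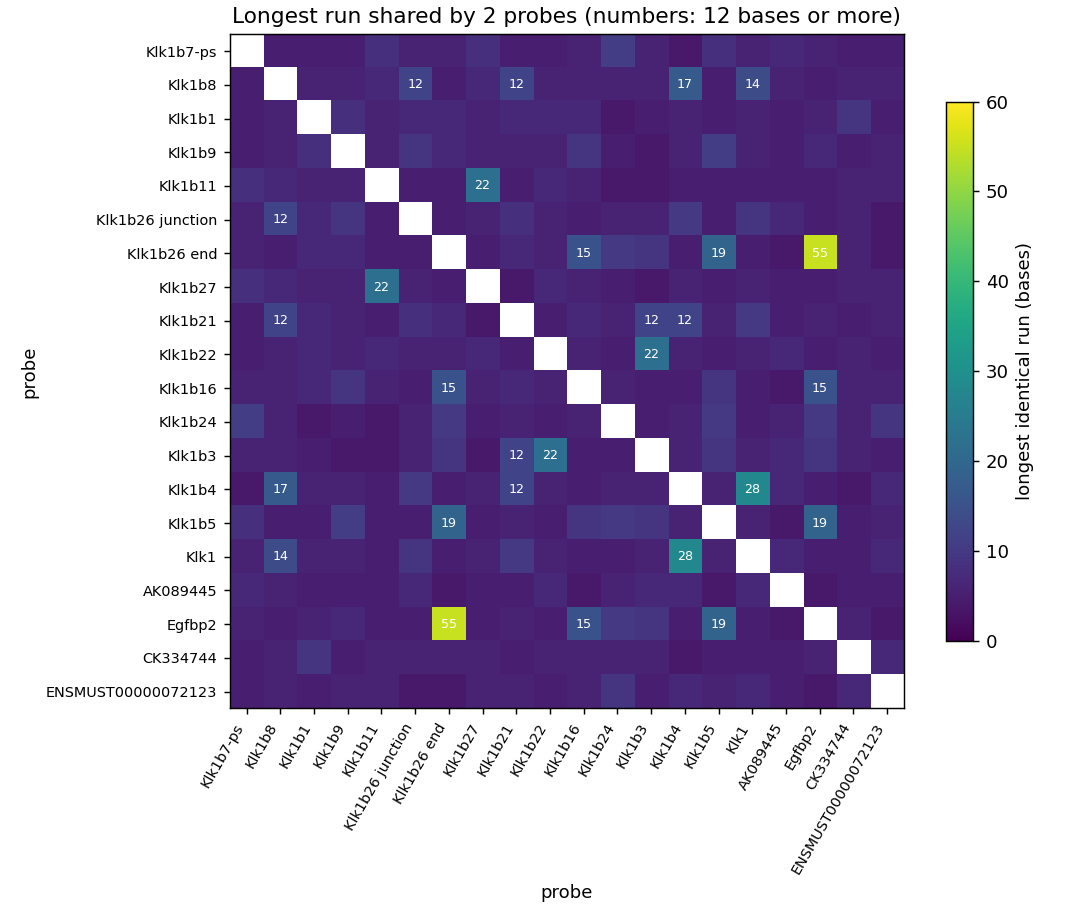
Longest identical run of bases, on a colour scale from 0 to 60, between every pair of 20 probes in or beside the cluster, which are the 11 member probes, the probes of 5 further Klk1b copies and 4 probes with other names. Numbers are printed for runs of 12 bases or more, and the brightest cell, at 55 bases, is the end probe of Klk1b26 with the probe named Egfbp2.

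At all 11 member probes both MDSC groups read lower than DCs, by 6 to 14.7-fold in 6G- BM-MDSC and by 4.56 to 13.2-fold in MDSC (conv.). Both arrays of each MDSC group lay below both DC arrays at every member probe. The 2 comparisons share their DC arrays and are given side by side for that reason. Intensities are the processed signals of the image software on a linear scale, and differences (log2) are of group means after each array was set relative to its own 75th percentile. Levels are compared only within a probe, since probes differ in brightness for reasons other than transcript number.

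Klk1, the tissue kallikrein itself, read 241.0 and 234.3 in 6G- BM-MDSC, 381.1 and 364.9 in MDSC (conv.), and 2740.9 and 2814.5 in DCs. The 3 groups did not overlap at this probe, and 6G- BM-MDSC were the lowest. The difference from DCs was -3.55 (log2) for 6G- BM-MDSC and -2.99 for MDSC (conv.), each with a standard error of 0.09.

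Among the members tied to nerve growth factor, Klk1b3 (gamma subunit) read 423.1 and 420.7 in 6G- BM-MDSC, 689.8 and 665.7 in MDSC (conv.), and 5899.6 and 5281.6 in DCs. Klk1b4 (alpha subunit) read 1111.0 and 1144.7 in 6G- BM-MDSC, 1617.3 and 1589.0 in MDSC (conv.), and 12472.6 and 12436.4 in DCs. At both probes the groups stood apart in the same order, with replicates much closer together than groups. The log2 differences from DCs were -3.73 in 6G- BM-MDSC and -3.14 in MDSC (conv.) for Klk1b3 (standard error 0.09). For Klk1b4 they were -3.47 in 6G- BM-MDSC and -3.06 in MDSC (conv.) (standard error 0.10).

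Among the binding proteins of epidermal growth factor, Klk1b22 read 1267.6 and 1231.6 in 6G- BM-MDSC, 1680.6 and 1696.7 in MDSC (conv.), and 12290.8 and 11848.1 in DCs. Its log2 difference from DCs was -3.27 in 6G- BM-MDSC and -2.93 in MDSC (conv.), with a standard error of 0.08. The junction probe of Klk1b26 read 58.5 and 46.2 in 6G- BM-MDSC, 85.3 and 91.1 in MDSC (conv.), and 735.3 and 653.9 in DCs. The end probe of Klk1b26 read 96.5 and 73.0 in 6G- BM-MDSC, 110.4 and 110.8 in MDSC (conv.), and 635.5 and 510.2 in DCs. Both probes put the groups in the same order, and they differed in size. The difference from DCs in 6G- BM-MDSC was -3.74 ± 0.10 (log2, standard error) at the junction probe and -2.76 ± 0.12 at the end probe. In MDSC (conv.) it was -3.07 ± 0.10 at the junction probe and -2.46 ± 0.12 at the end probe. A further probe, named Egfbp2 in the files, is identical to the end probe over 55 overlapping bases, and Egfbp2 is an older symbol of Klk1b26 in the RefSeq table. It read 93.2 and 62.2 in 6G- BM-MDSC, 114.7 and 103.0 in MDSC (conv.), and 540.7 and 473.7 in DCs, which gave -2.73 for 6G- BM-MDSC and -2.32 for MDSC (conv.) against DCs, close to the end probe. It falls outside the members by its name alone and adds no independent reading.

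For the other members no role is stated here. Klk1b11 read 8440.3 and 7429.9 in 6G- BM-MDSC, 11394.1 and 10958.7 in MDSC (conv.), and 58547.2 and 55948.0 in DCs. Klk1b27 read 197.9 and 149.5 in 6G- BM-MDSC, 214.5 and 193.4 in MDSC (conv.), and 2699.7 and 2353.6 in DCs. Klk1b11 had 3 groups apart, and Klk1b27 was the one member at which the MDSC groups overlapped. These are the genes whose probes match at 54 of 60 bases, and their differences from DCs were not alike. In 6G- BM-MDSC the difference was -2.86 ± 0.07 for Klk1b11 and -3.88 ± 0.12 for Klk1b27, and in MDSC (conv.) it was -2.45 ± 0.07 for Klk1b11 and -3.73 ± 0.12 for Klk1b27 (log2, standard error).

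Klk1b21 read 1491.1 and 1385.5 in 6G- BM-MDSC, 1720.2 and 1827.6 in MDSC (conv.), and 12110.7 and 12080.7 in DCs. Klk1b24 read 1211.8 and 1144.1 in 6G- BM-MDSC, 1857.7 and 1572.4 in MDSC (conv.), and 12293.8 and 11269.1 in DCs. Both had 3 groups apart, with log2 differences from DCs of -3.08 for Klk1b21 and -3.32 for Klk1b24 in 6G- BM-MDSC, and of -2.87 for Klk1b21 and -2.88 for Klk1b24 in MDSC (conv.). Their probes share no run of 15 bases with another probe of the cluster. The Klk1b21 probe still matched that of Klk1b4 at 30 of 35 overlapping bases and that of Klk1b8 at 43 of 60. Klk1b5 read 50.1 and 39.6 in 6G- BM-MDSC, 59.7 and 65.8 in MDSC (conv.), and 301.5 and 236.5 in DCs. It had the smallest difference among the member probes in both comparisons with DCs, at -2.59 in 6G- BM-MDSC and -2.19 in MDSC (conv.), with a standard error of 0.13.

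**Figure D2:**
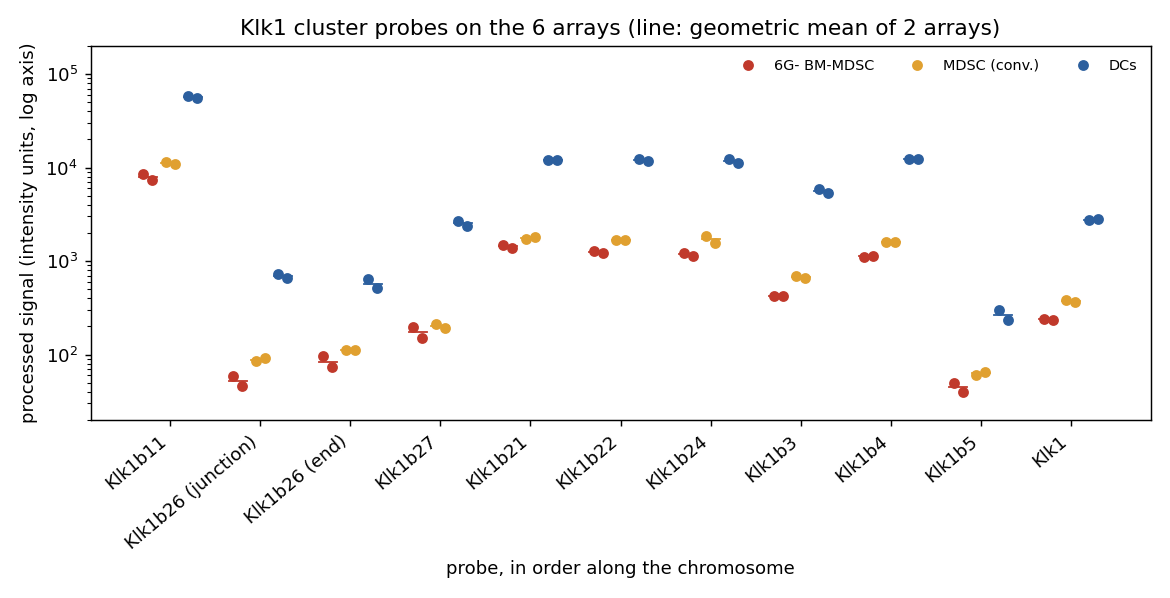
Processed signal (intensity units, log axis) of the 11 member probes, with a point for each of the 6 arrays and a line at the geometric mean of each pair, for 6G- BM-MDSC, MDSC (conv.) and DCs from left to right at each probe. The DC points lie above all MDSC points at every probe, and the 6G- BM-MDSC and MDSC (conv.) points overlap at Klk1b27 only.

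Set beside all tested probes, the median member difference was -3.32 (log2) in 6G- BM-MDSC against DCs, where the median of all 33484 tested probes was -0.02. In MDSC (conv.) against DCs it was -2.93, where that of all tested probes was -0.01. Both arrays lay below both DC arrays at 37.2% of all tested probes for 6G- BM-MDSC and at 35.9% for MDSC (conv.). The members were chosen from these same contrasts, so nothing is read from these shares. Both MDSC groups lay in row 1 of the slide and DCs in row 2, so that row and the difference from DCs cannot be told apart. With another background correction (normexp with an offset of 50) every member stayed below DCs, and the dimmer probes had smaller differences, so that the range over members became -3.65 to -1.63 in 6G- BM-MDSC and -3.39 to -1.46 in MDSC (conv.). The Egfbp2 probe became -1.95 in 6G- BM-MDSC. An added offset by itself shrinks the differences of dim probes, so their smaller size with normexp is no separate result.

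Between both MDSC groups the members differed far less. All 11 were lower in 6G- BM-MDSC than in MDSC (conv.), by 1.11 to 1.59-fold, with a median difference of -0.40 (log2) where that of all tested probes was 0. The junction probe of Klk1b26 had the difference farthest from 0, at -0.67 ± 0.10 (standard error), followed by Klk1b3 at -0.59 ± 0.09 and Klk1 at -0.55 ± 0.09, and Klk1b27 the nearest, at -0.15 ± 0.12. The junction probe is dim, at 58.5 and 46.2 in 6G- BM-MDSC. With normexp the range over members in this comparison became -0.56 to -0.08. Both 6G- BM-MDSC arrays lay below both MDSC (conv.) arrays at 10 of the 11 probes, and at 21.9% of all tested probes. The limma fit called 3 of all tested probes between these groups at an adjusted p under 0.05 (0.00597% lower and 0.00299% higher), and 3591 probes had an unadjusted p under 0.05. The order 6G- BM-MDSC, MDSC (conv.), DCs from low to high with no overlap held for 10 of 11 member probes and for 2335 of 33484 tested probes (6.97%). The members were chosen with their values in all groups known, and many of their probes are alike. Nothing is therefore read from these shares either.

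**Figure D3:**
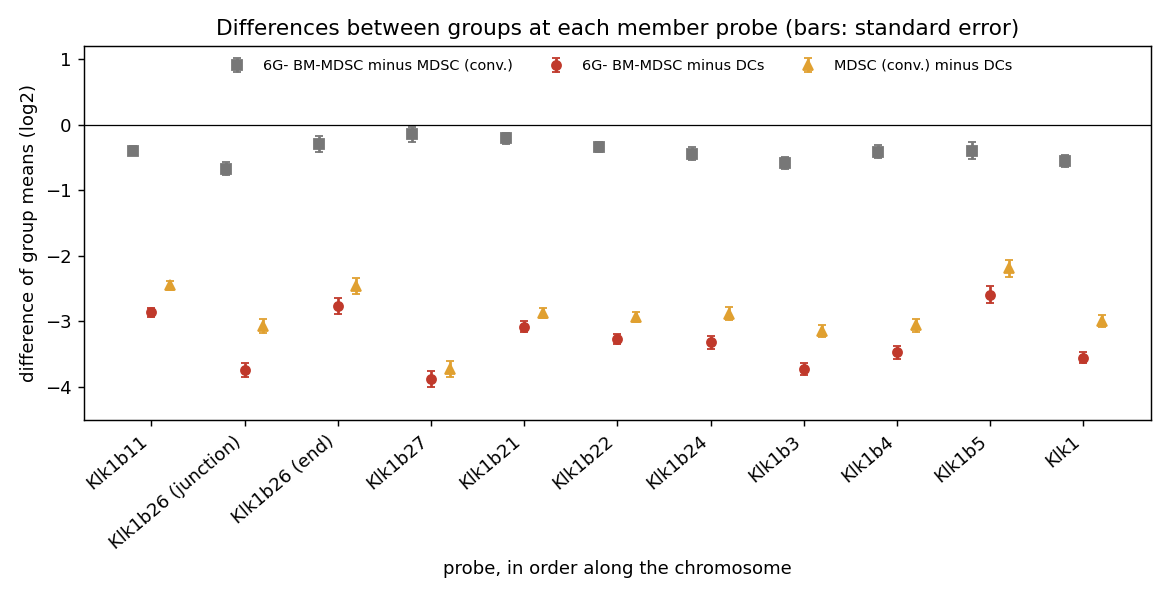
Difference of group means (log2) at each member probe for 6G- BM-MDSC minus MDSC (conv.), 6G- BM-MDSC minus DCs and MDSC (conv.) minus DCs, with bars for the standard error from the fit across all probes. Points of the first comparison lie between -0.67 and -0.15, while those of the comparisons with DCs lie between -3.88 and -2.19.

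Outside the members, 5 further Klk1b copies had a probe on the array, and all 5 were tested in the fit over all probes. The Klk1b8 probe shares a run of 17 bases with the Klk1b4 probe and the Klk1b16 probe a run of 15 with the end probe of Klk1b26, while the Klk1b1, Klk1b9 and Klk1b7-ps probes share no run of 15 with another probe. Of all tested probes, 16.2% were called lower and 15% higher in 6G- BM-MDSC against DCs, and 14.3% lower and 13.4% higher in MDSC (conv.) against DCs. Klk1b9, which encodes another binding protein of epidermal growth factor, read 863.9 and 951.1 in 6G- BM-MDSC, 1307.4 and 1303.8 in MDSC (conv.), and 14364.1 and 13110.4 in DCs. Its differences from DCs, -3.92 in 6G- BM-MDSC (adjusted p = 0.000234) and -3.49 in MDSC (conv.) (adjusted p = 0.000265), were the largest of the 5. Klk1b8 fell by 3.17 on the log2 scale in 6G- BM-MDSC (adjusted p = 0.000234) and by 3.00 in MDSC (conv.) (adjusted p = 0.000233), with DC readings of 23998.2 and 24534.9. Klk1b1 was lower too, at -3.01 in 6G- BM-MDSC (adjusted p = 0.00167) and -2.64 in MDSC (conv.) (adjusted p = 0.00249), which became -2.03 in 6G- BM-MDSC and -1.91 in MDSC (conv.) with normexp.

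The other 2 copies were dim. Klk1b16 was not well above background on either 6G- BM-MDSC array and was at least 6.82-fold higher in DCs in the fit reported (adjusted p = 0.00231). With normexp its difference in 6G- BM-MDSC was -1.01 (log2), which is smaller than that bound. In MDSC (conv.) the difference from DCs was -2.40 (adjusted p = 0.0046), and -1.0 with normexp. The pseudogene Klk1b7-ps was not well above background on any MDSC array. DCs, with 50.6 and 29.7, were at least 2.83-fold above 6G- BM-MDSC (adjusted p = 0.0297) and at least 2.73-fold above MDSC (conv.) (adjusted p = 0.0793). With normexp its difference in 6G- BM-MDSC was -0.58 (log2), which is smaller than that bound. Klk1b7-ps passed the filter on dim probes only through DCs, the group where it is high, so these p-values lend its difference no support. Its call against 6G- BM-MDSC was lost when either DC array or either MDSC (conv.) array was left out, with adjusted p up to 0.115. None of the 5 was called between the MDSC groups (adjusted p from 0.367 to 0.674).

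Probes along the chromosome were used to see how far the difference from DCs reached. Within 300 kb of the member probes lay 47 further probes, of which 29 were tested. Of these 29, the fit called 2 higher and 11 lower in 6G- BM-MDSC against DCs, and 0 higher and 10 lower in MDSC (conv.) against DCs, beside the shares of all tested probes given above. The 29 include Egfbp2, which is Klk1b26. At the left edge, AK089445, at -290.5 kb from the Klk1 probe, had a difference from DCs of -3.09 in 6G- BM-MDSC (adjusted p = 0.0014) and -2.33 in MDSC (conv.) (adjusted p = 0.00309), and with normexp of -1.68 in 6G- BM-MDSC and -1.46 in MDSC (conv.). Klk15, the kallikrein-related gene beside it, was not well above background on both arrays of any group. Klk4, at -343.2 kb from the Klk1 probe, was lower in 6G- BM-MDSC at -0.48 (adjusted p = 0.0335), a call that was lost without either 6G- BM-MDSC array or either DC array and with normexp (adjusted p = 0.126). Farther out, 2310002F09Rik was at -0.53 in 6G- BM-MDSC (adjusted p = 0.00717) and -0.36 in MDSC (conv.) (adjusted p = 0.0221), and the call of MDSC (conv.) was lost in 4 of 6 fits with an array left out (adjusted p up to 0.0916).

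ENSMUST00000072123, an unnamed transcript at -7.3 kb, beside Klk1b5, was not well above background on either 6G- BM-MDSC array and was at least 2.55-fold higher in DCs (adjusted p = 0.00255). With normexp its difference in 6G- BM-MDSC was -0.46 (log2), which is smaller than that bound. In MDSC (conv.) its difference from DCs was -0.97 (adjusted p = 0.00941, and 0.0612 without MDSC (conv.) replicate 2). At the right edge, 1700028J19Rik, 1.1 kb beyond the start of the Klk1 probe, read 669.2 and 657.1 in 6G- BM-MDSC, 780.2 and 845.3 in MDSC (conv.), and 1444.2 and 1347.2 in DCs, which is -1.07 in 6G- BM-MDSC (adjusted p = 0.00193) and -0.88 in MDSC (conv.) (adjusted p = 0.0035). The 2 probes of 2410002F23Rik, next to it, gave -0.98 and -0.84 in 6G- BM-MDSC and -0.74 and -0.72 in MDSC (conv.), all with an adjusted p of 0.00411 or less. Clec11a, a secreted lectin-like growth factor, was at -0.86 in 6G- BM-MDSC (adjusted p = 0.00832) and -0.82 in MDSC (conv.) (adjusted p = 0.0105), a call of MDSC (conv.) that was lost without its replicate 1 (adjusted p = 0.0537). Spib, a transcription factor of the ETS family, was at -0.63 in 6G- BM-MDSC (adjusted p = 0.00967) and -0.64 in MDSC (conv.) (adjusted p = 0.00997), and the call of MDSC (conv.) was lost without either of its arrays (adjusted p up to 0.0557). One of 3 Fam71e1 probes was lower in 6G- BM-MDSC (-0.94, adjusted p = 0.034), a call lost in 5 of 6 fits with an array left out (adjusted p up to 0.121).

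Not all probes on that side were lower. One of 2 tested 1700008O03Rik probes was not well above background on either DC array, and 6G- BM-MDSC were at least 1.62-fold above them (adjusted p = 0.0234). The call was lost without either 6G- BM-MDSC array. With normexp the difference was 0.35 (log2), which is smaller than that bound. This probe passed the filter only through 6G- BM-MDSC, the group where it is high, so its p-value lends the difference no support. Lrrc4b, which encodes a synaptic adhesion protein, was at 0.87 in 6G- BM-MDSC (adjusted p = 0.0924) and 0.99 in MDSC (conv.) (adjusted p = 0.0722) and did not pass. Aspdh, at the same side, was called lower in MDSC (conv.) (adjusted p = 0.0305), but no DC array was well above background there, so no fold is given, and the call was lost in 5 of 6 fits with an array left out (adjusted p up to 0.116). Josd2, 242.4 kb beyond, lay between -0.11 and 0 at both its probes. Gm15517, Emc10 and 5430431A17Rik, and on the left side of the cluster Klk9 and Klk10, lay between -0.68 and 0.49 in both comparisons and did not pass. Shank1 did not pass either.

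**Figure D4:**
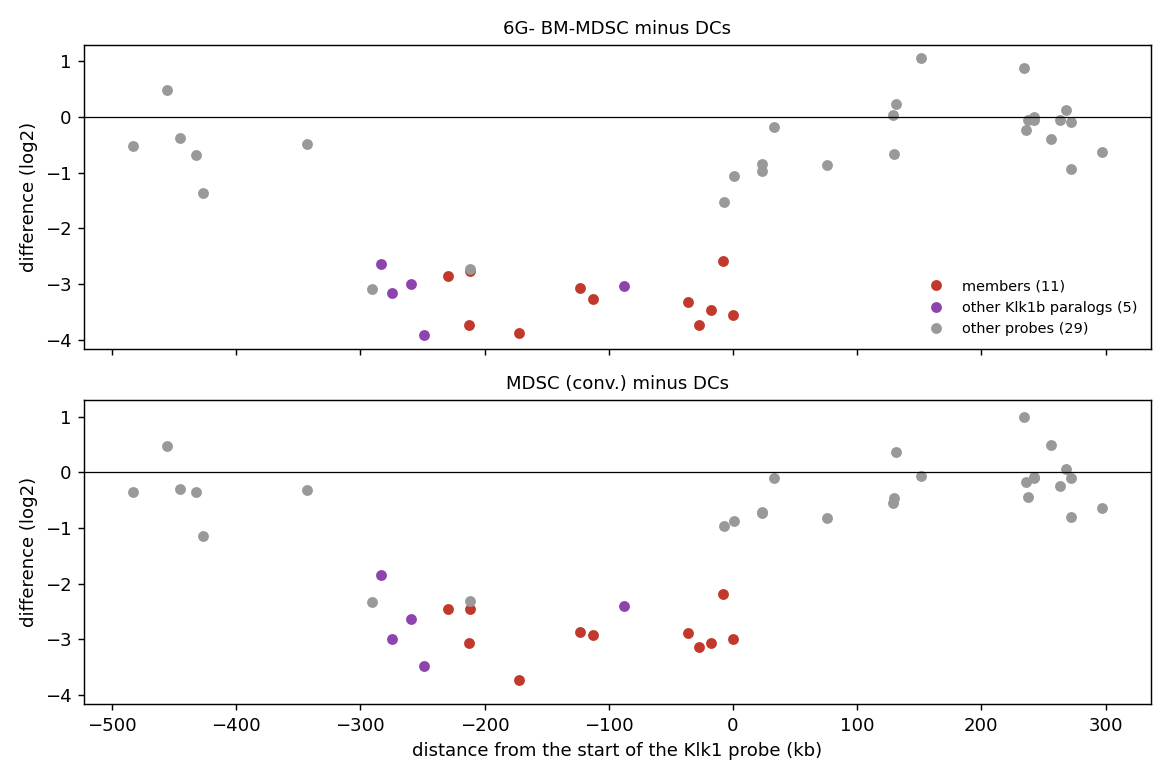
Log2 difference of 6G- BM-MDSC minus DCs (top) and of MDSC (conv.) minus DCs (bottom) against the distance in kb from the start of the Klk1 probe, for 11 member probes, 5 probes of other Klk1b copies and 29 other tested probes. The members and copies lie between -3.92 and -1.85, and the nearest probe beyond Klk1 is at -1.07 in the top panel and -0.88 in the bottom one.

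The promoters of the 10 members were compared in the RefSeq table (GRCm38.p6), since the members moved together. Over the 250 bases before the start, aligned with MAFFT, pairs of members were 75.3 to 97.7% identical at the bases aligned, with a median of 82.7% over 45 pairs. The least alike pair was Klk1b24 and Klk1, and the most alike Klk1b21 and Klk1b24. The last 80 bases before the start are shown for a pair with like probes, for the member with the smallest difference from DCs and for Klk1, all on the forward strand. Capitals mark TTTAAA, a variant of the TATA box that reads the same on both strands.
Klk1b11, chr7:43995797-43995876: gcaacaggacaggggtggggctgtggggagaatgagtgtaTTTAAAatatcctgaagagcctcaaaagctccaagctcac
Klk1b27, chr7:44052210-44052289: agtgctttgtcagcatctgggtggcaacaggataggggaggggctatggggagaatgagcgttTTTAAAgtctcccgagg
Klk1b5, chr7:44216394-44216473: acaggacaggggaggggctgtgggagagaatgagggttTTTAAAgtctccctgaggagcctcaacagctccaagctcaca
Klk1, chr7:44225280-44225359: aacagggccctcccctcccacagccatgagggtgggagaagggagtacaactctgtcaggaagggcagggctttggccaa
TTTAAA lay in these 80 bases in 8 of the 10 members, with its first base 13 to 48 bases before the start, and in 3.55% of all 32851 promoters of the table. Klk1 and Klk1b21 had none there. In the whole window of 300 bases, TTTAAA was found in 9 of 10 members and 13.2% of all promoters, and TATAAA, searched on both strands, in 0 of 10 members and 13.6% of all promoters. These motifs differ in 1 letter and cannot overlap. GAGGAA, the core of sites for the myeloid factor PU.1, was in 0 of 10 members on either strand and in 28.3% of all promoters. These are matches of letters only. The members are copies of a duplicated sequence and not independent of one another, so nothing is read from their counts beside the shares of all promoters. The RefSeq model of Klk1b21 is 101968 bases long and its start lies before Klk1b26, so its window is far from its probe. That start, at 44004616, is next to the start of the pseudogene Klk1b12-ps, at 44004639. The identities and motif counts that include Klk1b21 may therefore not describe its own promoter.

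The rest of the kallikrein system was followed through 5 gene lists, and no probe of these lists was called between the MDSC groups. The other kallikrein-related peptidases, the family that Klk4 and Klk12 belong to, had 14 probes, of which 5 were tested. In 6G- BM-MDSC against DCs, Klk12 was called higher (0.49, adjusted p = 0.0439) and Klk4 lower, with a median of -0.48, and in MDSC (conv.) against DCs none was called, with a median of -0.32. Klk8 read 106.8 and 44.8 in 6G- BM-MDSC, 106.6 and 71.1 in MDSC (conv.), and 256.4 and 124.7 in DCs, and did not pass (adjusted p = 0.092 for 6G- BM-MDSC and 0.15 for MDSC (conv.)). The Klk12 call was lost without either 6G- BM-MDSC array or either DC array, with adjusted p up to 0.161, and with normexp (adjusted p = 0.436).

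The kinin system, which holds the substrates, receptors and degrading enzymes of the kinins, had 35 probes of 17 genes, of which 16 probes of 10 genes were tested. In 6G- BM-MDSC against DCs 4 probes were higher and 5 lower (median -0.13), and in MDSC (conv.) against DCs 1 was higher and 4 lower (median -0.25). The kininogens Kng1 and Kng2, from which kinins are cut, and the activating factor F12 were not tested, as they were not well above background on both arrays of any group. Bdkrb2, the constitutive kinin receptor, was not well above background on any MDSC array and was at least 2.42-fold higher in DCs than in 6G- BM-MDSC (adjusted p = 0.0133). The call was lost without DCs replicate 1. With normexp the difference was -0.57 (log2), which is smaller than that bound. Bdkrb2 passed the filter only through DCs, the group where it is high, so its p-value lends the difference no support.

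Of the enzymes that cut kinins, Prcp, a carboxypeptidase, was lower in both MDSC groups at all 3 of its probes, by -1.23 to -0.90 in 6G- BM-MDSC and by -1.28 to -0.86 in MDSC (conv.), with adjusted p between 0.00105 and 0.00624. Ace, angiotensin-converting enzyme, was at -1.60 in 6G- BM-MDSC (adjusted p = 0.0422) and -1.59 in MDSC (conv.) (adjusted p = 0.0464), but its DC arrays read 348.9 and 139.0 and both calls were lost in 5 of 6 fits with an array left out. Cpd, another carboxypeptidase, was higher in 6G- BM-MDSC at all 3 probes, by 0.41 to 0.65, and Xpnpep1, an aminopeptidase, was higher at 1 of 2 probes in each MDSC group, by 0.41 in 6G- BM-MDSC and 0.40 in MDSC (conv.). Each of these calls was lost in at least 4 of 6 such fits, with adjusted p up to 0.155.

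Protease inhibitors that act on kallikreins and trypsin had 25 probes, of which 12 were tested. None was called higher. In 6G- BM-MDSC 5 probes fell against DCs (median -0.32), and in MDSC (conv.) 3 did (median -0.38). Spint2, a Kunitz-type inhibitor, was lower at its probe with the readings 1855.2 and 1607.3 in 6G- BM-MDSC, 1862.1 and 1668.8 in MDSC (conv.), and 2933.5 and 2787.8 in DCs, by -0.73 in 6G- BM-MDSC (adjusted p = 0.005) and -0.80 in MDSC (conv.) (adjusted p = 0.00422). The further calls were Spint1, also of the Kunitz type, at -0.42 in 6G- BM-MDSC and -0.44 in MDSC (conv.), and Spink2, of the Kazal type, at -0.89 in 6G- BM-MDSC and -0.93 in MDSC (conv.). A second Spint2 probe (-0.65) and Serpina1b, a serpin (-0.58), were called in 6G- BM-MDSC. Each of these was lost in at least 2 of 6 fits with an array left out.

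Substrates of glandular kallikreins and the receptors of those substrates had 25 probes, of which 18 were tested, with 3 higher and 4 lower in 6G- BM-MDSC and 7 higher and 4 lower in MDSC (conv.), both against DCs. Egfr, the receptor of epidermal growth factor, was lower at all 3 probes, from -2.47 to -2.21 in 6G- BM-MDSC (adjusted p between 0.000519 and 0.00165) and from -2.02 to -1.80 in MDSC (conv.) (adjusted p between 0.000744 and 0.00284). Its probe A_52_P106259 read 199.8 and 133.1 in 6G- BM-MDSC, 224.2 and 186.3 in MDSC (conv.), and 794.7 and 713.3 in DCs, with no overlap between either MDSC group and DCs. With normexp the other 2 probes came nearer to 0, at -1.09 and -0.95 in 6G- BM-MDSC and -0.96 and -0.90 in MDSC (conv.), and stayed called. Mmp9, a gelatinase, went the other way, with 6100.3 and 6031.6 in 6G- BM-MDSC, 4472.3 and 5392.7 in MDSC (conv.), and 129.0 and 90.5 in DCs at one probe. It was 56.0-fold higher in 6G- BM-MDSC (adjusted p = 0.000234) and 42.5-fold higher in MDSC (conv.) (adjusted p = 0.000251) than in DCs. With normexp it was higher by 5.11 (log2) in 6G- BM-MDSC and 4.69 in MDSC (conv.). Mmp2, another gelatinase, was 2.29-fold higher in 6G- BM-MDSC (adjusted p = 0.00222) and 1.73-fold higher in MDSC (conv.) (adjusted p = 0.00728). Ager, a receptor of the immunoglobulin family, had 7 tested probes that did not go one way, with 1 called lower in 6G- BM-MDSC (-0.45) and 4 called higher in MDSC (conv.) (0.49 to 0.87). These Ager calls, and that of Egf in MDSC (conv.) (-0.68, adjusted p = 0.04), were lost in at least 4 of 6 fits with an array left out.

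Other trypsin-like serine proteases of leukocytes had 7 of 14 tested probes higher and 1 lower in 6G- BM-MDSC, and 8 higher and 1 lower in MDSC (conv.), both against DCs. Ctsg (cathepsin G), a neutrophil granule protease, read 54450.7 and 48875.1 in 6G- BM-MDSC, 65765.1 and 65288.8 in MDSC (conv.), and 3009.2 and 3265.5 in DCs. Prtn3 and Elane, proteases of the same granules, were 14.5-fold and 12.3-fold higher in 6G- BM-MDSC, and 19.5-fold and 14.0-fold higher in MDSC (conv.), than in DCs, with adjusted p of 0.000234 in 6G- BM-MDSC and 0.00023 in MDSC (conv.) for both. The basophil proteases Mcpt8 and Prss34 were higher by 3.38 and 3.33 (log2) in 6G- BM-MDSC and by 3.44 and 3.27 in MDSC (conv.), and Prss57, a granule protease, by 2.99 in 6G- BM-MDSC and 3.43 in MDSC (conv.), with adjusted p of 0.00142 or less. With normexp Prss57 was higher by 2.01 in 6G- BM-MDSC and 2.40 in MDSC (conv.). Gzmb was not well above background in DCs, and 6G- BM-MDSC were at least 1.78-fold above them (adjusted p = 0.0318) and MDSC (conv.) at least 1.44-fold (adjusted p = 0.0481). With normexp the Gzmb differences were smaller than those bounds, at 0.63 (log2) in 6G- BM-MDSC and 0.48 in MDSC (conv.). The MDSC (conv.) call was then lost (adjusted p = 0.0514). Gzmb passed the filter on dim probes only through MDSC groups, where it is high, so its p-values lend these differences no support. Plau, urokinase, was higher at 1 of 2 probes in MDSC (conv.) (0.73, adjusted p = 0.0239). The Gzmb and Plau calls were lost in at least 3 of 6 fits with an array left out. Hgfac, an activator of hepatocyte growth factor, was the one that fell, with 819.4 and 788.9 in 6G- BM-MDSC, 1178.4 and 868.8 in MDSC (conv.), and 4451.2 and 3973.6 in DCs. That is -2.39 for 6G- BM-MDSC (adjusted p = 0.00106) and -2.15 for MDSC (conv.) (adjusted p = 0.00143).

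**Figure D5:**
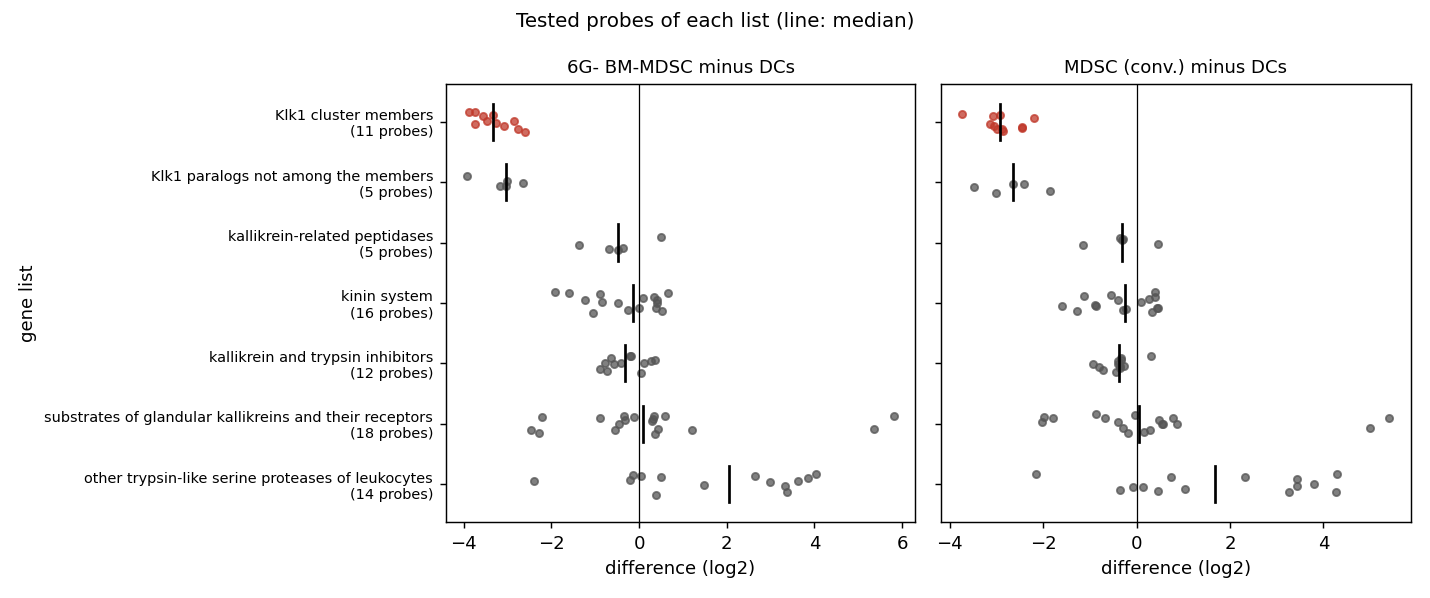
Log2 differences of 6G- BM-MDSC minus DCs (left) and MDSC (conv.) minus DCs (right) for the tested probes of the members and of 6 related gene lists, with a point per probe and a line at each median. The member and paralog points all lie at or below -1.85, and the leukocyte protease medians lie at 2.06 on the left and 1.68 on the right.

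The genes most like Klk1b11, which has the brightest member probe, were found by the root mean square distance between log2 values over the 6 arrays, each centred on its own mean. The nearest were Tppp3, a tubulin-binding protein, at 0.0513 for one probe and 0.0756 for a second, H2-M2, a class Ib histocompatibility gene, at 0.0839, Flnc, a filamin that crosslinks actin, at 0.0942, and Snph, syntaphilin, at 0.103. Trp53i11 followed at 0.104. All lie on other chromosomes. Of the cluster, the end probe of Klk1b26 was nearest, at 0.108 (rank 7), and Klk1b27, in spite of its like probe, was at 0.556 (rank 330). With 3 groups of 2 arrays, likeness here means little more than a similar size of both steps between groups.

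Summed marker RNA of other cell types differed between the cultures along with the cluster. The summed level of 12 dendritic cell markers, relative to the 75th percentile of each array, was 896 to 970 in 6G- BM-MDSC, 976 to 983 in MDSC (conv.), and 1620 to 1650 in DCs, with Xcr1 below background in all groups. That of 10 macrophage markers was 108 to 112 in 6G- BM-MDSC, 106 to 113 in MDSC (conv.), and 168 to 188 in DCs. That of 10 neutrophil markers was 879 to 1040 in 6G- BM-MDSC, 1060 on both arrays in MDSC (conv.), and 232 to 240 in DCs, and that of 10 basophil and mast cell markers was 82.6 to 86.5 in 6G- BM-MDSC, 88.8 to 89.3 in MDSC (conv.), and 13.5 to 17.9 in DCs. Of 10 markers of salivary gland and kidney epithelium, tissues known for kallikreins, Aqp5, Amy1, Krt8, Umod and Smr3a were below background everywhere. The summed level of that list was 6.83 to 7.46 in 6G- BM-MDSC, 8.52 to 8.83 in MDSC (conv.), and 17.5 to 17.7 in DCs. Of its 4 tested probes, 1 was called higher and 2 lower in 6G- BM-MDSC, and 0 higher and 2 lower in MDSC (conv.), both against DCs. Krt18, a keratin, read 51.2 and 32.3 in 6G- BM-MDSC, 60.7 and 28.6 in MDSC (conv.), and 11 and 16.7 in DCs, which were not well above background. At this probe 6G- BM-MDSC were at least 1.92-fold above DCs (adjusted p = 0.0499) and MDSC (conv.) at least 1.85-fold (adjusted p = 0.0594). Krt18 passed the filter on dim probes only through MDSC groups, where it is high, so these p-values lend its differences no support. Cdh1, a cadherin, read 4033.0 and 3996.3 in 6G- BM-MDSC, 5090.0 and 5303.3 in MDSC (conv.), and 10076.3 and 9242.5 in DCs, and Epcam, an adhesion molecule, read 80.3 and 69.5 in 6G- BM-MDSC, 140.7 and 129.9 in MDSC (conv.), and 671.1 and 571.1 in DCs. Cdh1 was far brighter than Krt18 and Epcam and makes up most of the sum of that list, so the sum does not show an epithelial cell type. What part other cell types had in the differences of the cluster was not tested.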

How the data were processed

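Mouse bone marrow cultures of 3 groups were measured on 6 one-colour Agilent arrays. The deposited intensity is the processed signal of Agilent Feature Extraction (version 10.5.1.1 in the submitters' notes, 10.7.3.1 in the file headers), background-subtracted by the authors' software and not scaled between arrays. Values in the deposited matrix equalled these intensities to within 0.005, and it served as an alternative. The 75th percentile of an array was 560.2 to 633.3, 55.6 to 59.9% of probes were well above background by the software's call, and replicates correlated at 0.994 to 0.996. The number of arrays limits the precision.

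Control probes and marked spots (103 to 146 per array) were left out in R 4.3.3 (read with data.table, version 1.17.8), spots of a probe were averaged (300 probes had more than 1 spot), log2 was taken and each array's 75th percentile subtracted. A probe was tested if well above background on both arrays of at least 1 group. One limma 3.58.1 fit (lmFit, eBayes) over all 6 arrays, with 3 residual degrees of freedom and Benjamini-Hochberg adjustment at 0.05, gave every difference, standard error and adjusted p. Of the probes, 32994 (58.3%) were matched to RefSeq by accession and 1535 renamed. Where no array of a group was above background, the fold is a bound against the lowest signal called above background on each array of that group. The bound holds for the reported background handling only. With normexp several differences were smaller than it, but the added offset by itself shrinks the differences of dim probes. Normexp therefore cannot check the bound. The fit was tested on simulated data. Sequences were compared in Python 3.11.15, promoters with MAFFT 7.526, and figures drawn with matplotlib 3.10.9 and numpy 2.4.6. The members and gene lists were chosen with earlier results of these data known. Named genes are every member probe, list genes that passed in at least 1 comparison, genes within 300 kb and the 5 most like the brightest member probe; of the genes within 300 kb the tested ones and Klk15 are named. Kng1, Kng2, F12 and the single cell type markers were chosen after their values were seen. Alternatives were another background correction, quantile normalization, other filters, marked spots kept, 1 probe per gene, the deposited matrix, fewer arrays, a replicate block, a prior variance that follows intensity, the methods' t-test and each array left out. For a given comparison, leaving out either array of the group outside it gives the same fit. The 6 fits with an array left out are thus not all distinct.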

Additional observations from a re-analysis of the deposited data

How the results depend on the processing

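No member difference changed sign under any alternative run. Leaving out 1 array moved none by more than the spread between replicates. With 2 arrays per group it could not have done so, and nothing is read from that. With normexp, 4 of 11 member differences between the MDSC groups, 8 of 11 between 6G- BM-MDSC and DCs and 9 of 11 between MDSC (conv.) and DCs moved by more than that spread, and quantile normalization moved 1 in each comparison with DCs. The number of probes called between the MDSC groups, 3 in the fit reported, was 56 (16 higher, 40 lower) with normexp, 86 with a prior variance that follows intensity, 0 with no filter on dim probes and 0 where a probe had to pass on all 6 arrays. It was 0 by the methods' t-test after Benjamini-Hochberg and 2733 unadjusted. With no filter, 18263 probes were called between 6G- BM-MDSC and DCs (27.4% of them higher, median of all probes -0.20) and 17710 between MDSC (conv.) and DCs (26.0% higher, median -0.18), against 10425 for 6G- BM-MDSC and 9281 for MDSC (conv.) in the fit reported. The methods' t-test after Benjamini-Hochberg called 109 probes for 6G- BM-MDSC and 2 for MDSC (conv.) against DCs. Leaving out 1 array gave 0 to 4 calls between the MDSC groups, 5098 to 8713 between 6G- BM-MDSC and DCs and 3835 to 7723 between MDSC (conv.) and DCs, from fewer samples. The cause of the other changes was not tested. Of the calls at list and neighbouring probes, 30 of 47 for 6G- BM-MDSC and 26 of 42 for MDSC (conv.) against DCs held with every array left out in turn. With normexp 3 of these 47 calls and 3 of these 42 were lost, and 13 of the 47 and 8 of the 42 moved by over 1.5 times. The labels do not say what a replicate number marks, and same-numbered samples deviated together only weakly (r = 0.103 between the MDSC groups, 0.047 for 6G- BM-MDSC with DCs and 0.11 for MDSC (conv.) with DCs). With the replicate block the counts were 2 between the MDSC groups, 9779 for 6G- BM-MDSC and 8557 for MDSC (conv.) against DCs. Probes near background, such as those of Klk1b5, Klk1b16 and Klk1b7-ps and the junction probe of Klk1b26, had the least certain sizes.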
